A study of Mus musculus with 18 samples.

Results

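The comparison set dopamine neurons of the ventral tegmental area (VTA) against those of the substantia nigra (SN) over every treatment of the study, with all genes of the array. It used 9 VTA arrays and 9 SN arrays, which are all 18 arrays of the series, chosen by their labels alone. The adult mice were C57Bl/6 and carried an hTH-GFP transgene, and all of them were kept singly for 9 weeks. Injections were of MPTP at 4 mg/kg, given over 2 days or over 10 days, or of saline over 10 days, and tissue was taken when 7 days had passed since the last one. Each region therefore has 3 arrays after saline, 3 after 2 days of MPTP and 3 after 10 days of MPTP, and the transgene and the single housing are shared by every group. The saline mice are called untreated in some labels and saline treated in the study's design. Neurons were laser captured, and their RNA was amplified before it was put on Affymetrix mouse arrays.

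The VTA and the SN are neighbouring groups of midbrain dopamine neurons. SN neurons send axons mainly to the dorsal striatum and are the ones that degenerate most in Parkinson disease and after MPTP. The toxic product of MPTP enters dopamine neurons through the dopamine transporter and blocks mitochondrial complex I. VTA neurons send axons to the ventral striatum and cortex and are less affected. In the mouse the homeobox factor Otx2 and the calcium-binding proteins calbindin and calretinin are known from VTA neurons, and the transcription factor Sox6, the retinal dehydrogenase Aldh1a1 and the potassium channel Kcnj6 from the ventral SN. The question was which of these differences, or others, are seen in the VTA arrays in every treatment.

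The labels do not say how the neurons were recognised before capture, how many mice an array holds, or whether a VTA array and an SN array of 1 replicate number came from the same mouse. They call the replicates biological. Values are log2 signals from which the median of each probe set over the 18 arrays has been removed, so 0 is the middle of the 18 arrays and a value says nothing about how strongly a gene was expressed. The labelled cell type could therefore not be checked by the level of its markers. For the same reason no probe set could be called present or absent. Precision is set by how many arrays there are. In captured tissue, fewer cells of a type and less RNA per cell cannot be told apart.

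No gene passed the test between the regions over all treatments with treatment as a covariate, and 1 gene, Rel, did so when treatment by replicate number was a block. Of 18193 genes, 0 had an adjusted p under 0.05 (0%) by limma with treatment as a covariate and Benjamini-Hochberg adjustment. At an unadjusted p under 0.05 there were 831 genes (4.57%), of which 455 (2.5%) had the higher mean in VTA and 376 (2.07%) the lower mean in VTA. The calretinin gene Calb2 had the smallest adjusted p, 0.0846 by limma, and the next, the neurokinin 3 receptor gene Tacr3, had 0.537. The SE of the VTA minus SN difference was 0.109 in the median gene, and its 95% interval reached 0.229 to either side. An absolute difference over 0.5 on the log2 scale was measured for 88 genes (0.484%), and one over 1 for 2 genes (0.011%), Tacr3 and Myl1. Over all 18193 genes the median difference was 0.00775, and 9574 genes (52.6%) had the higher mean in VTA.

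**Figure D1:**
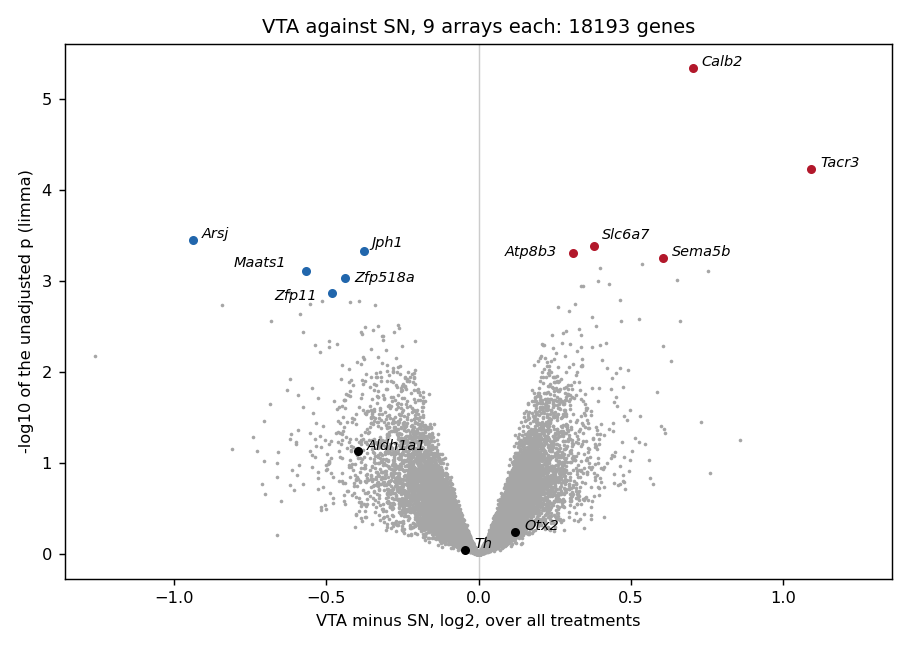
Each point is a gene, with its VTA minus SN difference over all treatments (log2, x axis) against the -log10 of its unadjusted limma p (y axis). Calb2 and Tacr3 stand apart at the upper right with differences of 0.70 and 1.09, while Th, Otx2 and Aldh1a1 lie in the bulk of the genes, and 0 of 18193 genes passed the adjusted threshold.

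Calb2 encodes calretinin, a calcium-binding protein that is a marker of VTA and dorsal SN dopamine neurons. After saline its values were 0.52, 0.66 and 0.23 on the VTA arrays, against -0.42, -0.31 and 0.00 on the SN arrays. After 2 days of MPTP they were 0.85, 0.10 and -0.12 on the VTA arrays, against -0.38, -0.59 and -0.27 on the SN arrays. After 10 days they were 0.71, 0.77 and 0.60 on the VTA arrays, against 0.00, 0.00 and -0.06 on the SN arrays. The VTA and SN arrays did not overlap within any of the 3 treatments, although the lowest VTA value, -0.12, was under the highest SN value, 0.00, when treatments were mixed. The VTA minus SN difference was 0.70 ± 0.11 (SE, 9 arrays per region, 95% interval 0.47 to 0.93), with an adjusted p of 0.0846 by limma. By treatment it was 0.71 after saline, 0.69 after 2 days and 0.71 after 10 days of MPTP, each ± 0.20 (SE, 3 arrays per region). The gene is represented by 1 probe set. The call is close to the threshold: over 36 other settings the difference lay between 0.58 and 0.76, and the adjusted p was under 0.05 in 5 of them and ranged from 0.0195 to 1.

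Tacr3 encodes the neurokinin 3 receptor, through which neurokinin B and related peptides excite dopamine neurons. After saline its values were 0.75, 1.34 and 1.29 on the VTA arrays, against 0.74, -0.76 and -0.29 on the SN arrays. After 2 days of MPTP they were 0.05, 0.23 and -0.78 on the VTA arrays, against -0.54, -1.01 and -0.87 on the SN arrays. After 10 days they were 0.80, 0.36 and 1.42 on the VTA arrays, against -0.29, -0.40 and -0.96 on the SN arrays. The VTA arrays lay above the SN arrays after saline and after 10 days, and the regions overlapped after 2 days, where VTA replicate 3 stood between the SN arrays. The difference was 1.09 ± 0.21 (SE, 9 arrays per region, 95% interval 0.65 to 1.53), which did not pass the test (adjusted p = 0.537, limma). Its 3 probe sets gave differences from 0.94 to 1.23. Without each array in turn the difference lay between 0.988 and 1.21. The adjusted p by limma then ran from 0.0769 without VTA replicate 3 after 2 days of MPTP to 0.999 without VTA replicate 1 after 2 days.

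The largest difference with the lower mean in VTA was that of Myl1, a muscle myosin light chain, named after its values were seen. It ran from -0.98 to 0.12 on the VTA arrays (median -0.59), against -0.60 to 3.85 on the SN arrays (median 0.55). The highest SN value came from SN replicate 2 after 2 days of MPTP. The difference was -1.26 ± 0.41 (SE, 9 arrays per region, adjusted p = 0.947 by limma), and -0.82 without that array.

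Arsj, an arylsulfatase family gene, had the smallest p among genes with the lower mean in VTA. Its values after saline were -0.57, -1.84 and -1.19 on the VTA arrays, against 0.93, -0.09 and 0.22 on the SN arrays. After 2 days of MPTP they were 0.09, -0.13 and 0.58 on the VTA arrays, against 0.84, 0.47 and 0.27 on the SN arrays. After 10 days they were -0.28, -0.78 and -0.60 on the VTA arrays, against 0.50, 0.77 and -0.20 on the SN arrays. The regions were apart after saline and after 10 days and overlapped after 2 days. The difference was -0.94 ± 0.21 (SE, 9 arrays per region, adjusted p = 0.947 by limma).

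**Figure D2:**
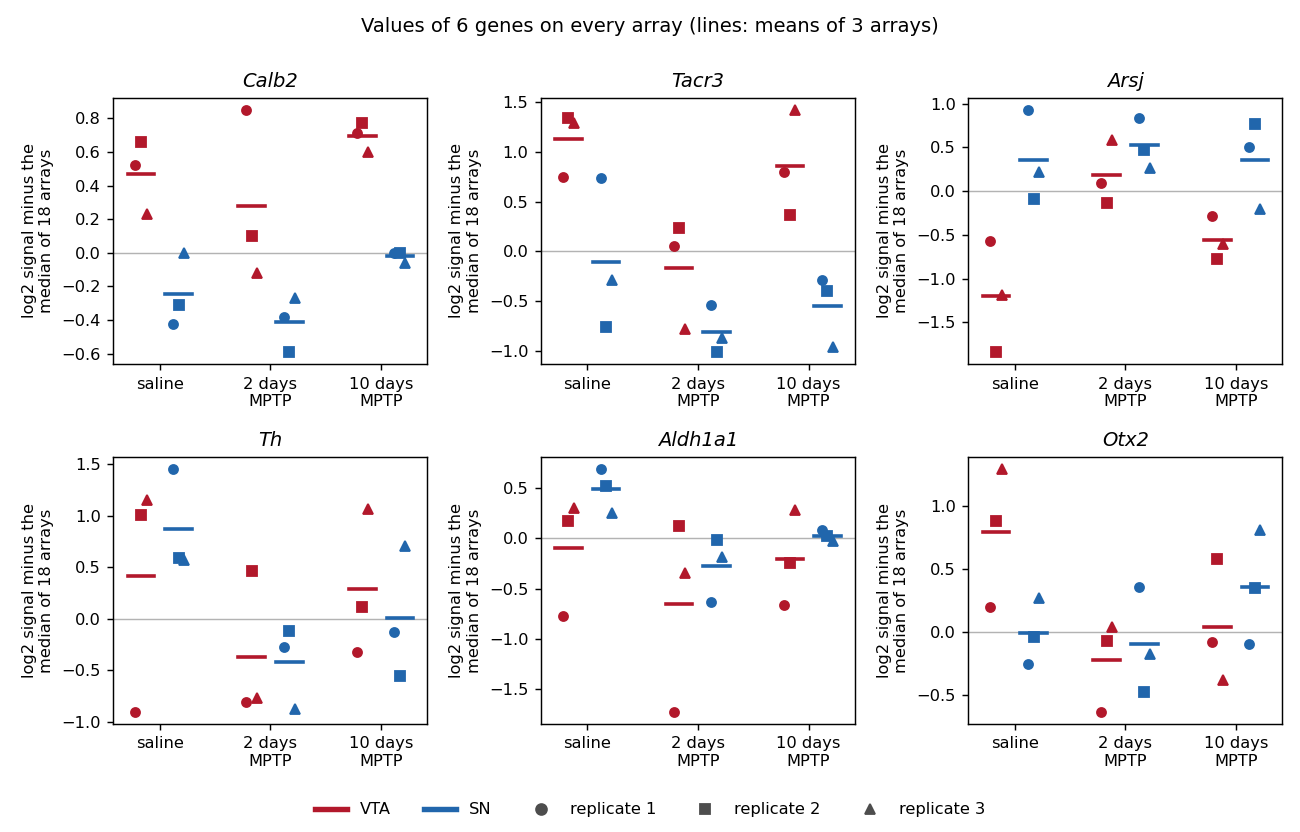
Points are single arrays and lines the means of 3 arrays, with VTA left of SN in each treatment and log2 signal relative to the median of the 18 arrays on the y axis. Calb2 is the only one of these 6 genes whose VTA and SN arrays did not overlap in any treatment, and the VTA arrays numbered 1 are the lowest of their group for Th and Aldh1a1.

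The other genes of smallest p on each side, all at an adjusted p of 0.947 by limma, had smaller differences. With the higher mean in VTA these were Slc6a7, a proline transporter of the brain, Atp8b3, a phospholipid-flipping ATPase, and Sema5b, a semaphorin that guides axons. Slc6a7 ran from -0.10 to 0.71 on the VTA arrays (median 0.24), against -0.36 to 0.02 on the SN arrays (median -0.06), a difference of 0.38 ± 0.09 (SE). Atp8b3 ran from 0.01 to 0.43 on the VTA arrays (median 0.17), against -0.27 to 0.11 on the SN arrays (median -0.15), a difference of 0.31 ± 0.07 (SE). Sema5b ran from -0.35 to 1.00 on the VTA arrays (median 0.55), against -0.34 to 0.14 on the SN arrays (median -0.22), a difference of 0.61 ± 0.14 (SE). All 9 VTA arrays exceeded the mean of the SN arrays of their treatment for Atp8b3, and 8 of 9 did so for Slc6a7 and Sema5b.

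With the lower mean in VTA these were Jph1, a junctophilin that ties the cell membrane to the endoplasmic reticulum, Maats1, a gene of cilia and flagella, and the zinc finger genes Zfp518a and Zfp11. Jph1 ran from -0.57 to -0.02 on the VTA arrays (median -0.12), against -0.18 to 0.35 on the SN arrays (median 0.21), a difference of -0.37 ± 0.09 (SE). For Jph1 and Zfp11, 0 of 9 VTA arrays exceeded the mean of the SN arrays of their treatment. The differences of Maats1, Zfp518a and Zfp11 were -0.57 ± 0.14, -0.44 ± 0.11 and -0.48 ± 0.13 (SE). The probe sets of Jph1 gave -0.54 and -0.21, and those of Maats1 -0.84 and -0.29, so these genes agreed in sign and not in size over their own probe sets.

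Differences that hold in every treatment were looked for in the 3 treatments taken singly, which share no arrays. The region difference had 1 sign in all 3 treatments in 5486 of 18193 genes (30.2%), with the higher mean in VTA in 2953 (16.2%) and the lower mean in VTA in 2533 (13.9%). Among the 831 genes of unadjusted p under 0.05 over all treatments, a choice that uses the same arrays, the number was 766 (92.2%). The arrays of the regions did not overlap in 1329 genes (7.31%) after saline, in 1554 (8.54%) after 2 days and in 1637 (9%) after 10 days of MPTP. They failed to overlap in 1 direction in every treatment in 2 genes (0.011%), Calb2 and Atp8b3, both higher in VTA. With 3 arrays per region, separation within a treatment arises readily by chance. Among 18193 genes, separation in every treatment can also arise by chance in a few. These counts were not tested, so the 2 genes are no evidence of more than chance. Neither gene passed the test over all treatments with treatment as a covariate. The 9 VTA arrays and the 9 SN arrays, taken without regard to treatment, were fully apart in 0 genes (0%).

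Atp8b3 was even over the treatments, with differences of 0.29 after saline, 0.30 after 2 days and 0.34 after 10 days of MPTP, each ± 0.13 (SE, 3 arrays per region). Its values after saline were 0.32, 0.39 and 0.13 on the VTA arrays, against 0.11, 0.07 and -0.22 on the SN arrays. Its 2 probe sets gave 0.19 and 0.44. The unadjusted p of Atp8b3 was 0.000491 and its adjusted p 0.947, by limma.

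Across the 18193 genes the region difference after saline had a Pearson correlation of 0.0405 with that after 2 days of MPTP and of 0.0596 with that after 10 days, and the correlation between 2 and 10 days was 0.14. These are descriptions across genes, which are not independent replicates. Without the 2 arrays of widest spread the 3 correlations were -0.0661, 0.0836 and 0.0383. In the median gene, region held 2.94% of the sum of squares over the 18 arrays with 1 degree of freedom, treatment 11.3% with 2, region by treatment 6.77% with 2, and the spread among replicates 71.7% with 12.

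When 1 treatment was left out and the other 12 arrays were tested, 0 genes were called each time, with a smallest adjusted p of 0.919 without the saline arrays, 0.175 without the 2 day arrays and 0.714 without the 10 day arrays, by limma. The 50 genes of smallest p on the 12 arrays were then looked up on the 6 arrays left out, a number chosen after the data were seen. They had the same sign there in 24 genes (48%) for saline, in 32 (64%) for 2 days and in 33 (66%) for 10 days. Over all genes that share was 52.3%, 54.9% and 55.5%. Calb2 ranked 1, 1 and 7 and Tacr3 ranked 5, 4 and 13 by p on the 12 arrays without the saline, 2 day and 10 day arrays in turn.

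Taken singly, each treatment called 0 genes, and 794 (4.36%) after saline, 508 (2.79%) after 2 days and 544 (2.99%) after 10 days of MPTP had an unadjusted p under 0.05. Those with the higher mean in VTA were 337 (1.85%) after saline, 315 (1.73%) after 2 days and 343 (1.89%) after 10 days, and those with the lower mean in VTA were 457 (2.51%), 193 (1.06%) and 201 (1.1%). Of all genes, 50% had the higher mean in VTA after saline, 53.7% after 2 days and 51.1% after 10 days. The smallest adjusted p by limma was 0.224 after saline, for the zinc finger gene Zfp112 and for Zwilch, a gene of the kinetochore. After 2 days it was 1, and after 10 days 0.698, for Vcpkmt, a protein lysine methyltransferase gene. The moderated F test that the region difference is equal in the 3 treatments called 0 genes, with 447 (2.46%) at an unadjusted p under 0.05 and a smallest adjusted p of 1. The 5 genes of smallest p in that test were Zfp112, the ATP-gated channel gene P2rx7, the defensin gene Defa3, the LIM-only factor gene Lmo1 and the galactokinase gene Galk2. P2rx7 gave VTA minus SN differences of 0.85 after saline, -0.53 after 2 days and -0.27 after 10 days, each ± 0.20 (SE). Lmo1 gave -0.96 after saline, 0.36 after 2 days and -0.20 after 10 days, each ± 0.18 (SE). Over all treatments the difference was 0.02 ± 0.18 for P2rx7 and -0.27 ± 0.16 for Lmo1 (SE), and neither passed a test.

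Genes known from VTA dopamine neurons were measured for 26 of 28 listed. Over all treatments 14 had the higher mean in VTA and 12 the lower, with a median difference of 0.0115, beside 52.6% of all genes and a median of 0.00775. None passed the test, and 4 had an unadjusted p under 0.05, Calb2, Tacr3, Cbln4 and Grp. All 4 had the higher mean in VTA, beside 2.5% of all genes at that p in that direction. Like all the gene lists, this one was drawn up with results of these arrays known, so these members are no independent evidence. Cbln4 encodes a secreted organiser of synapses and ran from -0.40 to 0.96 on the VTA arrays (median 0.10), against -0.75 to 0.16 on the SN arrays (median -0.48). Its difference was 0.60 ± 0.19 (SE, adjusted p = 0.947 by limma). Grp encodes gastrin-releasing peptide and ran from -0.37 to 0.82 on the VTA arrays (median 0.17), against -0.70 to 0.49 on the SN arrays (median -0.34). Its difference was 0.47 ± 0.18 (SE, adjusted p = 0.947 by limma). Without each array in turn the median of the list lay between -0.00975 and 0.071. The list did not keep 1 direction over the treatments: 18 genes were higher in VTA after saline (median 0.187), 8 after 2 days (median -0.13) and 15 after 10 days (median 0.0242).

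Otx2, the homeobox factor of VTA neurons, ran from -0.63 to 1.29 on the VTA arrays (median 0.04), against -0.47 to 0.81 on the SN arrays (median -0.04). Its difference was 0.80 after saline, -0.12 after 2 days and -0.32 after 10 days of MPTP, each ± 0.32 (SE), and 0.12 ± 0.21 over all treatments (95% interval -0.32 to 0.56). The vesicular glutamate transporter gene Slc17a6, expressed in those VTA neurons that also release glutamate, differed by 0.23 ± 0.33, with 0.93 after saline, -0.21 after 2 days and -0.04 after 10 days. The lowest of its 18 values, -2.09, came from SN saline replicate 1. Calb1, the calbindin gene, differed by -0.07 ± 0.13 and Cck, the cholecystokinin gene, by -0.01 ± 0.14 (SE), with 95% intervals of -0.35 to 0.20 and -0.31 to 0.29. For these 4 genes the regions overlapped in every treatment.

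**Figure D3:**
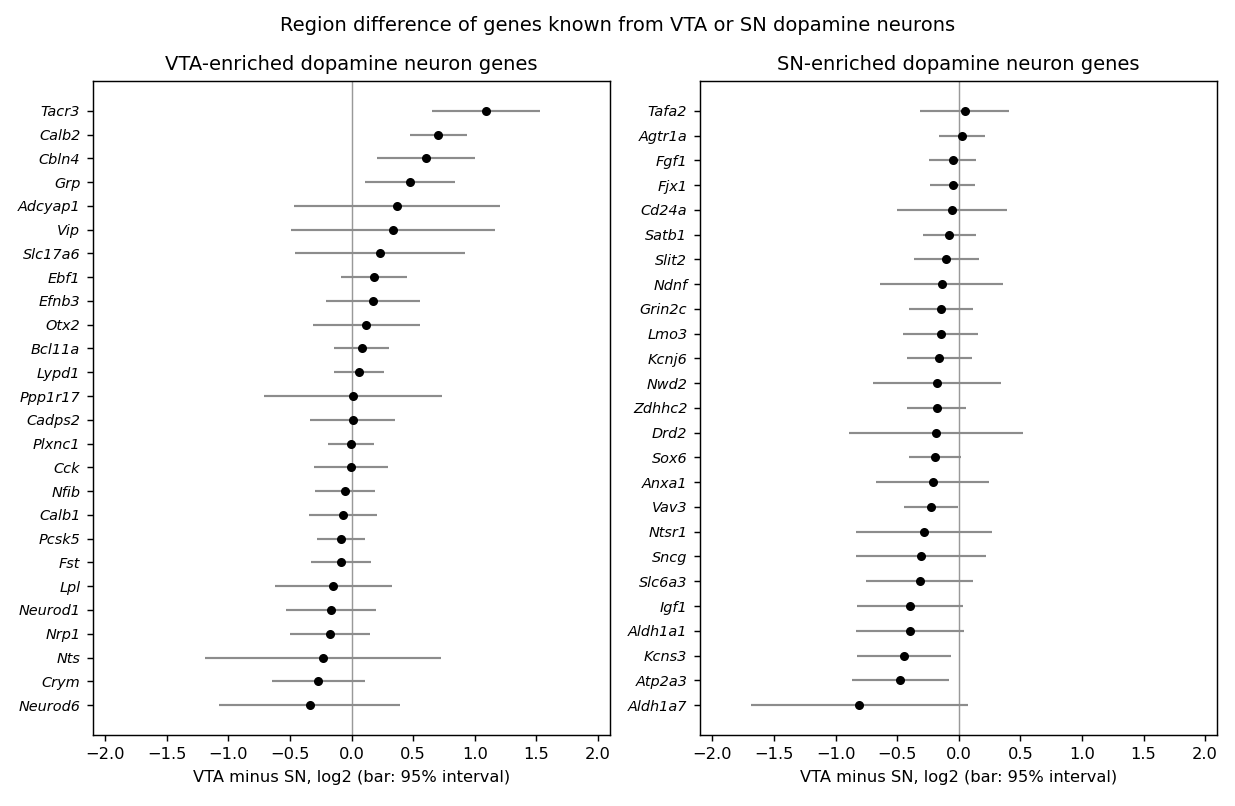
Points are VTA minus SN differences over all treatments (log2) and bars their 95% intervals, for the 26 measured genes known from VTA neurons (left) and the 25 known from SN neurons (right). In the left panel the genes lie on both sides of 0 and the intervals of Tacr3, Calb2, Cbln4 and Grp exclude it, and in the right panel 23 of 25 points lie below 0.

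Genes known from SN dopamine neurons were measured for 25 of 26 listed, and 23 had the lower mean in VTA, with a median difference of -0.18. Over all genes 52.6% had the higher mean in VTA and the median was 0.00775. None passed the test. At an unadjusted p under 0.05 and with the lower mean in VTA there were 3, beside 2.07% of all genes. The 3 were Atp2a3, a calcium pump of the endoplasmic reticulum (-0.47 ± 0.19), Kcns3, a modulating potassium channel subunit (-0.45 ± 0.18), and Vav3, a guanine nucleotide exchange factor (-0.23 ± 0.10, all SE). The number with the lower mean in VTA was 24 after saline (median -0.287), 19 after 2 days (median -0.0975) and 21 after 10 days (median -0.1), and 16 of 25 were lower in VTA in all 3 treatments, beside 13.9% of all genes. This list was drawn up with results of these arrays known, so its direction is no independent evidence.

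Sox6, the transcription factor of ventral SN neurons, ran from -0.40 to 0.16 on the VTA arrays (median -0.13), against -0.31 to 0.63 on the SN arrays (median 0.04), a difference of -0.19 ± 0.10 (SE, 95% interval -0.41 to 0.02). Aldh1a1, which makes retinoic acid and clears dopamine aldehydes, ran from -1.72 to 0.30 on the VTA arrays (median -0.25), against -0.63 to 0.68 on the SN arrays (median 0.02), a difference of -0.40 ± 0.21 (SE, 95% interval -0.83 to 0.04). Its close relative Aldh1a7 ran from -3.26 to 1.06 on the VTA arrays (median -0.13), against -0.99 to 1.58 on the SN arrays (median 0.14), a difference of -0.81 ± 0.42 (SE). Kcnj6, the GIRK2 potassium channel, differed by -0.16 ± 0.13, and its 5 probe sets gave values from -0.37 to 0.08.

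The shift of the SN gene list moved with the replicate number printed in the labels, and with the arrays of widest spread. The mean of the list lay between -0.74 and -0.34 on the 3 VTA arrays numbered 1, against -0.26 to 0.68 on the 3 SN arrays numbered 1. On the arrays numbered 2 and 3 it lay between -0.24 and 0.28 in VTA, against -0.17 to 0.25 in SN. The median difference of the list was -0.0321 on the arrays numbered 2 and 3 alone and -0.0692 without the 2 arrays of widest spread, VTA replicate 1 after 2 days of MPTP and SN saline replicate 1. The part of the replicate number in the list's shift was not tested.

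No gene that dopamine neurons of both regions need passed the test. The list of dopamine neuron identity was measured for 25 of 27 genes, and 11 had the higher mean in VTA with a median difference of -0.0191. The sign of that median was not stable: it was 0.0655 with array weights, 0.0716 without the 2 arrays of widest spread and 0.229 on the arrays numbered 2 and 3, and lay between -0.131 and 0.111 without each array in turn. Th, tyrosine hydroxylase and the first enzyme of dopamine synthesis, ran from -0.90 to 1.15 on the VTA arrays (median 0.12), against -0.87 to 1.45 on the SN arrays (median -0.12). Its difference was -0.04 ± 0.29 (SE, 9 arrays per region, 95% interval -0.66 to 0.57), an interval that leaves room for a large difference either way. Ddc, which completes dopamine synthesis, differed by -0.20 ± 0.17 (SE). The dopamine transporter Slc6a3, through which MPTP's toxic product enters the cell, differed by -0.32 ± 0.21 (95% interval -0.75 to 0.12). Slc6a3 was counted in the SN gene list above and not in the identity list. The vesicular transporter Slc18a2, which stores dopamine and sequesters that product, differed by -0.41 ± 0.24 (95% interval -0.90 to 0.09). None of these 4 genes passed the test, and their VTA and SN arrays overlapped in every treatment.

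The region difference of these 4 genes was not alike over the replicate numbers. Among arrays numbered 1, 2 and 3 the VTA minus SN difference of Th was -1.03, 0.56 and 0.34, that of Slc6a3 -1.16, 0.10 and 0.11, that of Slc18a2 -1.26, 0.03 and 0.01, and that of Ddc -0.61, -0.03 and 0.05, with 3 VTA and 3 SN arrays at each number. Aldh1a1 gave -1.09, -0.16 and 0.07, and Aldh1a7 -2.43, -0.53 and 0.54. On the other side, the cholecystokinin receptor gene Cckar gave 1.42, 0.37 and 0.03, the vasopressin receptor gene Avpr1a 1.25, 0.06 and 0.13, and Cbln4 1.16, 0.27 and 0.39. Calb2 gave 0.96, 0.81 and 0.34, Tacr3 0.56, 1.36 and 1.35, and Arsj -1.01, -1.30 and -0.50. These 3 kept their sign at every number, and so did Cckar, Avpr1a and Cbln4. Atp8b3, Jph1, Rel, Slc6a7 and Sema5b also kept theirs. A test that the region difference depends on the replicate number called 0 of 18193 genes, with 710 genes at an unadjusted p under 0.05 and a smallest adjusted p of 0.676 by limma. These genes were picked for this description after their values were seen.

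**Figure D4:**
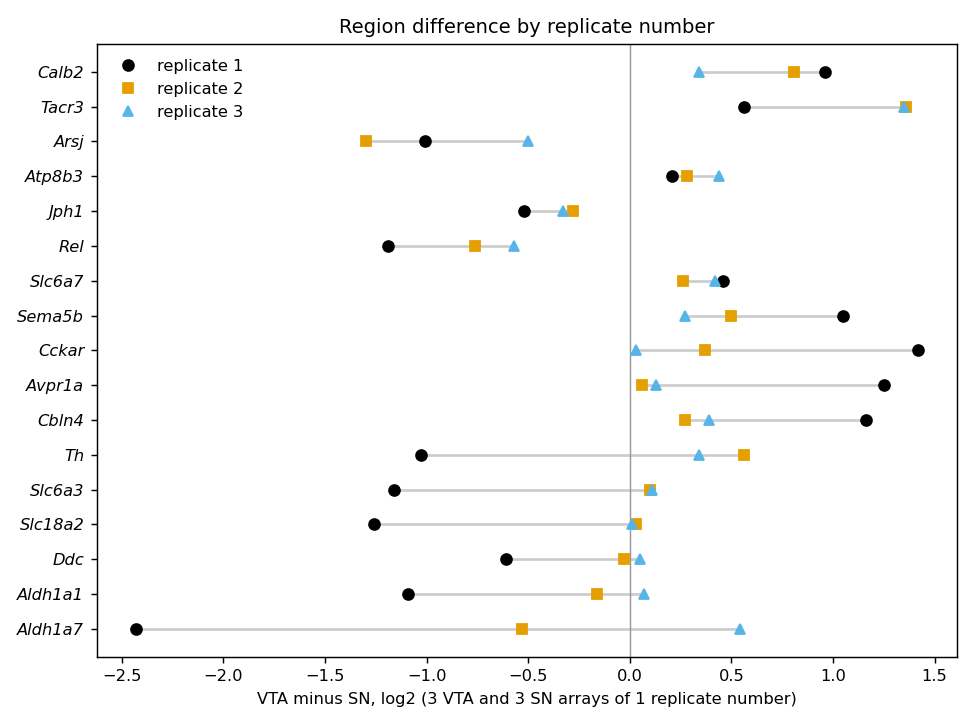
Each row is a gene, and the points are its VTA minus SN difference (log2) among the 3 VTA and 3 SN arrays of replicate number 1, 2 or 3. Th, Slc6a3, Slc18a2, Aldh1a1 and Aldh1a7 are far below 0 at number 1 and near or above it at number 3. Every other gene shown except Ddc stays on 1 side of 0, with Calb2, Tacr3 and Arsj among them.

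Of 25 measured identity genes, only Gfra1 and Nr4a2 had an unadjusted p under 0.05, beside 4.57% of all genes. Gfra1 had the lower mean in VTA and Nr4a2 the higher. Gfra1, the GDNF co-receptor, ran from -0.99 to 0.75 on the VTA arrays (median -0.18), against -0.44 to 1.35 on the SN arrays (median 0.16), a difference of -0.52 ± 0.17 (SE, adjusted p = 0.947 by limma). Its 3 probe sets gave -0.57 to -0.44. Nr4a2, the nuclear receptor needed to make and keep dopamine neurons, ran from -0.15 to 0.36 on the VTA arrays (median 0.15), against -0.34 to 0.30 on the SN arrays (median -0.11). Its difference was 0.21 ± 0.08 (SE, adjusted p = 0.947 by limma), with 9 of 9 VTA arrays above the mean of the SN arrays of their treatment and the same sign in 6 of 6 probe sets.

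Of 51 measured growth factor and receptor genes, 20 had the higher mean in VTA (median -0.0112, and 0.00192 without the 2 arrays of widest spread). At an unadjusted p under 0.05 there were 2 with the higher and 1 with the lower mean in VTA, beside 4.57% of all genes in both directions. Gdnf, the glial cell line-derived factor, differed by 0.19 ± 0.08 and the neurturin co-receptor Gfra2 by 0.28 ± 0.13, while the Kit ligand gene Kitl differed by -0.32 ± 0.14 (SE, adjusted p = 0.947 each by limma). Gdnf was above the mean of the SN arrays of its treatment on 9 of 9 VTA arrays. Gfra2 gave the same sign in 5 of 5 probe sets, and Kitl in 4 of 4.

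Neuropeptide and peptide receptor genes were measured for 49 of 50, and 28 had the higher mean in VTA (median 0.0431, and 0.0119 without the 2 arrays of widest spread). Cckar and Avpr1a were the only 2 with an unadjusted p under 0.05, beside 4.57% of all genes. Neither passed the test (adjusted p = 0.947 each by limma). Cckar ran from -0.16 to 2.38 on the VTA arrays (median 0.06), against -0.52 to 0.17 on the SN arrays (median -0.06), a difference of 0.61 ± 0.28 (SE). Avpr1a ran from -0.18 to 1.64 on the VTA arrays (median 0.21), against -0.25 to 0.47 on the SN arrays (median -0.15), a difference of 0.48 ± 0.20 (SE). The 3 highest Cckar values and the 3 highest Avpr1a values all came from the VTA arrays numbered 1.

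No channel or receptor gene passed the test. Of 53 calcium, potassium and HCN channel genes, 24 had the higher mean in VTA (median -0.0126). At an unadjusted p under 0.05 there was 1, the T-type calcium channel gene Cacna1h at 0.27 ± 0.13 (SE), beside 4.57% of all genes. Of 35 ionotropic glutamate, GABA and acetylcholine receptor genes, 22 had the higher mean in VTA (median 0.0427). The kainate receptor subunit Grik4 differed by 0.23 ± 0.08 and the GABA-A receptor subunit Gabrg1 by -0.28 ± 0.11 (SE, adjusted p = 0.947 each by limma). They were the only genes of this list with an unadjusted p under 0.05, 1 in each direction, beside 4.57% of all genes. Of 43 homeobox and other patterning factors, 22 had the higher mean in VTA (median 0.00734, and -0.00927 without the 2 arrays of widest spread). The only one with an unadjusted p under 0.05, beside 4.57% of all genes, was Pax5, a paired box factor of the midbrain boundary. Pax5 differed by 0.27 ± 0.10 (SE, adjusted p = 0.947 by limma). Of 80 axon guidance and adhesion genes, 43 had the higher mean in VTA (median 0.00855), and 0 had an unadjusted p under 0.05, beside 4.57% of all genes.

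Mitochondrial complex I, the target of MPTP's toxic product, was measured through 34 of 37 subunit genes, and 30 had the lower mean in VTA with a median difference of -0.0431. Over all genes 52.6% had the higher mean in VTA and the median was 0.00775. The mean of the subunits on an array ran from -0.113 to 0.0908 in VTA, against -0.0792 to 0.133 in SN. The subunits were measured on the same arrays and are not independent replicates. None of the subunits passed the test. Ndufs4 differed by -0.23 ± 0.09 and Ndufs1 by -0.19 ± 0.09 (SE, adjusted p = 0.947 each by limma). These were the only 2 subunits with an unadjusted p under 0.05, beside 4.57% of all genes. Ndufs4 ran from -0.48 to 0.06 on the VTA arrays (median -0.08), against -0.20 to 0.34 on the SN arrays (median 0.09), and 3 of its 4 probe sets shared the sign. By treatment, 8 of 34 subunits had the higher mean in VTA after saline (median -0.0674), 17 after 2 days (median 0.00924) and 7 after 10 days (median -0.0894). Without each array in turn the median over all treatments lay between -0.0641 and -0.0358. Of 13 synuclein and familial Parkinson disease genes, 8 had the higher mean in VTA (median 0.0189, and -0.0173 without the 2 arrays of widest spread). Of these 13, 0 had an unadjusted p under 0.05, beside 4.57% of all genes.

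Markers of other cell types were measured for 12 types. Over all treatments their median differences lay between -0.062 for endothelium and pericyte and 0.144 for serotonin neurons, with 0 genes called. Without the 2 arrays of widest spread the median was 0.0434 for serotonin neurons, 0.0212 for oligodendrocyte precursors and -0.0759 for glutamate neurons, and without each array in turn that of serotonin neurons lay between 0.0726 and 0.218. The counts of glial and vessel markers varied over the treatments. Of 16 astrocyte markers, 15 had the higher mean in VTA after saline (median 0.157), 0 after 2 days (median -0.21) and 4 after 10 days of MPTP (median -0.029). Of 13 oligodendrocyte markers the counts were 9, 1 and 6, of 13 endothelial and pericyte markers 8, 3 and 5, and of 14 microglial markers 6, 4 and 6. The mean of the astrocyte markers on an array ran from -0.252 to 0.181 in VTA, against -0.137 to 0.294 in SN, and that of the microglial markers from -0.396 to 0.291 in VTA, against -0.246 to 0.346 in SN. Because values are centred, no marker could be called absent, and the part of these cells in the region differences was not tested. The microglial adaptor gene Tyrobp, at -0.37 ± 0.16 (SE, adjusted p = 0.947 by limma), was the only marker in these lists with an unadjusted p under 0.05.

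The other neuron markers gave no call either. All 3 measured serotonin neuron markers had the higher mean in VTA (median 0.144), as did 6 of 9 GABA neuron markers (median 0.0753), 3 of 6 glutamate neuron markers (median 0.00576), 3 of 6 cholinergic markers (median -0.00685) and 4 of 10 hypothalamic and supramammillary markers (median -0.0228). Of the oligodendrocyte precursor markers 4 of 6 had the higher mean in VTA (median 0.104), and of the ependymal and choroid plexus markers 5 of 10 (median -0.00323), whose mean on an array ran from -0.557 to 0.821 in VTA, against -0.534 to 0.855 in SN. Of 3 erythrocyte markers, 1 had the higher mean in VTA (median -0.0398).

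**Figure D5:**
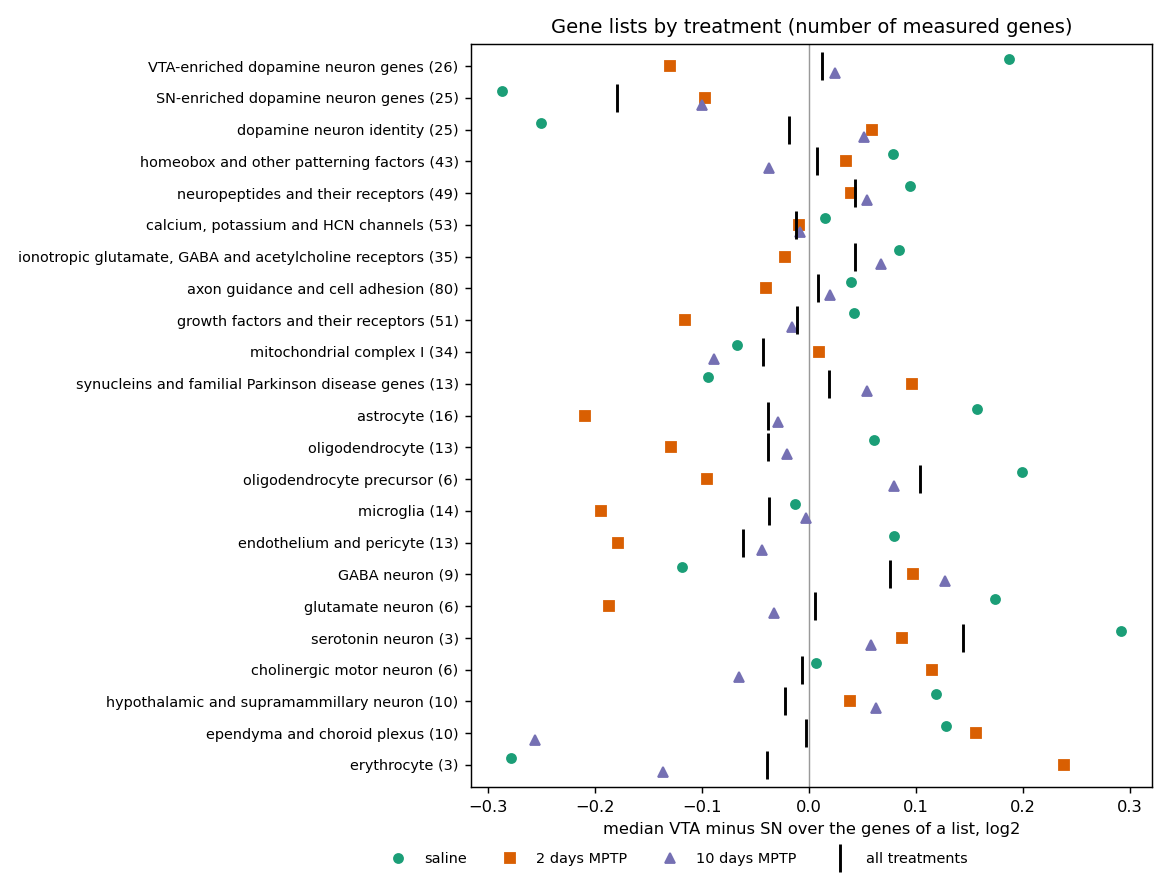
Each row is a gene list with its number of measured genes, symbols are the median VTA minus SN difference of its genes (log2) in each treatment, and black bars the median over all treatments. The SN gene list lies left of 0 in every treatment, from -0.287 to -0.0975, while the VTA gene list and the astrocyte, oligodendrocyte and vessel markers change side between saline and 2 days of MPTP.

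With treatment by replicate number as a block of 9 VTA and SN pairs, the fit called 1 gene, and it was not Calb2. Rel, which encodes the NF-kappa-B family member c-Rel, ran from -1.32 to 0.91 on the VTA arrays (median -0.37), against -0.08 to 1.99 on the SN arrays (median 0.44). Without the block its difference was -0.84 ± 0.23 (SE, 9 arrays per region), with an adjusted p of 0.947 by limma. With the block the difference was the same and the adjusted p was 0.0288 by limma. The SE of the fit with the block is not given here. The difference was -0.70 after saline, -0.92 after 2 days and -0.90 after 10 days of MPTP, and 8 of 9 VTA arrays lay under the mean of the SN arrays of their treatment. The adjusted p of Calb2 was 0.252 with the block. With the block as a random effect, 1 gene was called, Calb2 at an adjusted p of 0.0349, and Rel had 0.599.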

How the data were processed

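Laser-captured VTA and SN neurons were measured on 18 arrays of 45101 probe sets. The deposited log2 values were made by the authors in GeneSpring GX 10.0 with RMA, a step named in the series' design and, for RMA, per the submitters' processing notes. The row median of every probe set is 0, so the authors' values are centred, and signal over background is not analysed here. Of the probe sets, 34945 with 1 gene symbol in the platform annotation were averaged to 18193 genes, with no filter on low values, while 932 had several symbols and 9211 none. The 64 control probe sets, some with a symbol, were left out of both sets tested.

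The VTA minus SN difference was fitted on all 18 arrays by lmFit and eBayes of limma 3.58.1 (R 4.3.3), with treatment as a covariate, and p-values were adjusted over all genes by Benjamini-Hochberg at 0.05. A 6-group model gave the difference within each treatment and the region by treatment F test. The code was tested on simulated data. Groups came from the labels, and p-values measure the spread between these arrays. Genes were named as the 5 of smallest p on each side, 11 fixed dopamine neuron genes and the 5 of smallest interaction p. Named after their values were seen were the list members of unadjusted p under 0.05, the genes of smallest adjusted p within a treatment, Rel (called with the block), Myl1 (difference over 1), and Aldh1a7 and Khsrp (by replicate number). The members and gene lists were chosen with earlier results of these data known. Alternatives covered normalization, array weights, probe set choice, blocks and left-out arrays.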

Additional observations from a re-analysis of the deposited data

Results flagged for a closer look

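In 48 named genes, the 9 arrays of each region were searched for 1 array far from the rest, and 5 of 96 groups held one, where chance gives about 1 in 20. Tacr3 on SN saline replicate 1 was 0.74, with the nearest SN array at -0.29. Sema5b on SN saline replicate 3 was 0.14, with the nearest at -0.17. Avpr1a on SN replicate 2 after 10 days of MPTP was 0.47, with the nearest at -0.03. Rel on SN saline replicate 1 was 1.99, with the nearest at 0.62. Myl1 on SN replicate 2 after 2 days of MPTP was 3.85, with the nearest at 1.19. All 5 were the highest SN array of their gene.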

How the results depend on the processing

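The count of genes called between the regions over all treatments, and of called genes that hold in every treatment, was 0, and became 1 under repeated quantile normalization (Calb2, adjusted p 0.0341), array weights (Calb2, 0.0333), the random replicate block (Calb2, 0.0349) and the replicate block (Rel, 0.0288). At an adjusted p of 0.1 the first count was 1 (Calb2). Leaving out 1 array at a time gave counts from 0 to 1, with 1 (Calb2) without VTA replicate 1 after 2 days of MPTP (0.0294) or VTA replicate 3 after 2 days (0.0195). Of 9 same-numbered VTA and SN pairs, 7 had deviations correlated over 0.1 (0.0504 to 0.399). Among the 3 arrays of the other region in their treatment, 17 of 18 arrays correlated best with the one of their own number. The correlation within the random block was 0.176. Arrays of 1 number thus shared part of their spread, and whether they shared a mouse was not tested. The labels tie no number to a mouse, and pairing was accepted only with every pair over 0.1. The fit without the block was therefore kept. That fit treats same-numbered arrays as independent, although they shared part of their spread. Calls within single treatments and of the interaction stayed at 0 in every setting run. No gene below was called, and the cause of each change of sign was not tested. Repeated quantile normalization turned Th (0.076), Cck (0.0393) and P2rx7 (-0.0485). Array weights turned Th (0.157), Slc17a6 (-0.0912), Cck (0.0687) and P2rx7 (-0.0754). Leaving out the 2 arrays of widest spread turned Th (0.138), Slc17a6 (-0.0989), Cck (0.1) and P2rx7 (-0.0143). Without saline arrays Th was 0.162, Otx2 -0.22, Slc17a6 -0.122, Zfp112 0.106, P2rx7 -0.4, Defa3 -0.242, Lmo1 0.0769 and Galk2 0.184. Without 2 day arrays Calb1 was 0.0027 and Cck 0.0847, and without 10 day arrays Calb1 was 0.00322. Saline alone gave Calb1 0.228 and Cck 0.000739. The 2 day arrays alone gave Th 0.045, Ddc 0.0416, Otx2 -0.121, Slc17a6 -0.206, Zfp112 0.241, P2rx7 -0.53, Lmo1 0.356 and Galk2 0.246. The 10 day arrays alone gave Th 0.279, Otx2 -0.32, Slc17a6 -0.0376, Cck 0.169, P2rx7 -0.271, Defa3 -0.688, Galk2 0.123 and Atp2a3 0.0215. The arrays numbered 2 and 3 alone, a setting chosen after seeing the data, gave Th 0.45, Slc6a3 0.107, Slc18a2 0.0195, Ddc 0.0102, Calb1 0.0334, Slc17a6 -0.13, Cck 0.113, Kcnj6 0.0235, P2rx7 -0.0242 and Aldh1a7 0.00441. Without each array in turn Cck lay between -0.0555 and 0.119, Otx2 between -0.000386 and 0.216, P2rx7 between -0.0962 and 0.0851, and Th between -0.178 and 0.174.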

Other observations

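The replicate number, examined after seeing the data, was tied to more genes than the region. With treatment and region in the limma fit, 155 of 18193 genes (0.852%) differed by number at an adjusted p under 0.05, and 46 (0.253%) did so without the 2 arrays of widest spread, with 29 in both. Number 2 against number 1 called 227 genes and number 3 against number 1 called 146, while number 3 against number 2 called 0. Khsrp, a splicing and RNA decay factor, lay between -1.14 and -0.67 on the 6 arrays numbered 1 (median -0.91), against -0.19 to 0.45 on the 12 others. Number 1 differed from the mean of numbers 2 and 3 by -1.08 ± 0.09 (SE). The limma F test that the 3 numbers differ gave Khsrp an adjusted p of 0.000113. The labels do not say what the number stands for beyond a replicate.

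Of 10092 probe sets with no symbol or several, control probe sets left out, 0 passed the test between VTA and SN, with 491 (4.87%) at an unadjusted p under 0.05 and a smallest adjusted p of 0.924 by limma.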
